A study of Mus musculus with 6 samples.

Results

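The genes of the major histocompatibility complex (MHC) and of antigen presentation were followed in mouse liver after Vascepa. They were taken from the platform annotation as every gene with a probe of its own whose symbol starts with H2-, together with B2m, the peptide transporter and its loading partners, the immunoproteasome and its activator, Cd74 and the transactivators Ciita and Nlrc5. The rule found 46 genes of the 22180 with a probe of their own. They fell into 22 class I heavy chain genes, 11 genes of the class I pathway, 11 class II genes, the class II transactivator and H2-Ke6, which lies among them by name but encodes a metabolic dehydrogenase. Of the 46, 29 lay at or above the median intensity of all probes, 2.65 on the log2 scale, and could be tested, while 17 were dimmer. Cd74, the invariant chain of class II, and H2-D1, a classical class I heavy chain, were represented only by probes that carry other gene names too, so no value is given for either.

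Livers came from male C57BL/6 mice aged 8 weeks at the start. A group of 3 received vehicle (vehicle_HFD) and a group of 3 received Vascepa (Vascepa_HFD), each for 7 days, after which both ate a high-fat diet for 6 weeks. Vascepa is a prescription form of icosapent ethyl, an ester of the fish-oil fatty acid eicosapentaenoic acid (EPA). Each liver RNA sample was read on 1 Affymetrix expression array, and the values are log2 levels. The labels do not say that the samples of a group are separate animals, so a p-value here measures sample-to-sample spread, part of which may be technical. Both groups carry the diet, and no lean group was analysed here.

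MHC class I molecules are heavy chains paired with B2m that show cytosolic peptides to CD8 T cells on nearly every cell. The peptides are cut by the proteasome, carried into the endoplasmic reticulum by TAP and loaded with the help of tapasin, and NLRC5 and interferon gamma drive many of these genes together. Class II molecules show endosomal peptides to CD4 T cells, are made mainly by dendritic cells, B cells and macrophages, exchange peptides through the DM molecule and depend on CIITA. In the liver, hepatocytes carry class I, and class II comes largely from Kupffer cells, the resident macrophages, and from dendritic and sinusoidal cells.

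The promoters of these genes are known for shared boxes, the X and Y boxes of class II and their relatives in class I, so the 130 bases before the start of 5 members are shown, together with the stretch between a pair of class I pathway genes. The sequences are RefSeq's for GRCm38.p6, where 34 of the 46 genes had an entry, and each is written 5′ to 3′ in the direction of the gene. Capitals mark the Y box core (ATTGG or its reverse complement CCAAT), the X2 core (TGACG or its reverse complement), the X1 box and, in H2-K1, the NF-kappa-B site of enhancer A. H2-DMb1 lies before its start at chr17:34153061-34153190 on the plus strand, H2-Eb1 at chr17:34305737-34305866 on the plus strand, H2-Aa at chr17:34287824-34287953 on the minus strand, H2-K1 at chr17:34000334-34000463 on the minus strand and B2m at chr2:122147557-122147686 on the plus strand.
H2-DMb1: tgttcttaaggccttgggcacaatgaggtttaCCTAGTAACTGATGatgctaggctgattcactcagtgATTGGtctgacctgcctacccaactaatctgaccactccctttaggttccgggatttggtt
H2-Eb1: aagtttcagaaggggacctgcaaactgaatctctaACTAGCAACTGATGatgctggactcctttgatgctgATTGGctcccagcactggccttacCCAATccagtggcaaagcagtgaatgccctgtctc
H2-Aa: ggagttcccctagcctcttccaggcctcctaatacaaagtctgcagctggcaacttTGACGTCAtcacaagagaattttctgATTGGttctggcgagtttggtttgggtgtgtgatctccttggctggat
H2-K1: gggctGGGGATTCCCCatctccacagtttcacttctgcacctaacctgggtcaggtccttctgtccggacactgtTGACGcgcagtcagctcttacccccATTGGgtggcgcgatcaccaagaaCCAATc
B2m: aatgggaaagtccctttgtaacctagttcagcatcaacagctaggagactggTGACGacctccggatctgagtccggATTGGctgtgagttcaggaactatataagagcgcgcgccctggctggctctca

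A gene was counted where any of its windows held the motif, since a few genes have more than 1 start. The Y box core was found for 7 of 8 class II genes, 14 of 16 class I genes and 2 of 9 class I pathway genes, against 25.4% of the 27025 RefSeq genes counted the same way (22.4% of the 32851 windows). The X2 core was found for 1 of 8 class II, 7 of 16 class I and 2 of 9 class I pathway genes, against 13.9% of all genes. An X1 box with at most 1 mismatch was found for 4 of 8 class II genes (H2-DMb1, H2-DMb2, H2-Eb1 and H2-Ob), for none of the class I genes and for Tap1, against 0.344% of all genes. In H2-DMb1 the X1 box began 98 bases before the start and the Y box 61 bases before it. The distance from X1 to Y was 37 bases in H2-DMb1 and H2-DMb2, 36 in H2-Eb1 and 34 in H2-Ob. H2-Aa held no X1 match under this rule but a palindromic TGACGTCA, which holds the X2 core on both strands. The exact NF-kappa-B site was in H2-K1 only among the members, against 0.0222% of all genes, and the core of the interferon response element in H2-T23 only, against 1.57%. All motifs were searched on both strands. These matches describe letters in a window and are not evidence of binding.

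Psmb9 and Tap1 start 226 bases apart and run in opposite directions, so they share the stretch between them, chr17:34187331-34187555, which is written here along the plus strand, the direction of Tap1, with capitals at a Y core next to Psmb9 and at an X1 box that overlaps an X2 core, 98 and 86 bases before the start of Tap1.
Psmb9-Tap1: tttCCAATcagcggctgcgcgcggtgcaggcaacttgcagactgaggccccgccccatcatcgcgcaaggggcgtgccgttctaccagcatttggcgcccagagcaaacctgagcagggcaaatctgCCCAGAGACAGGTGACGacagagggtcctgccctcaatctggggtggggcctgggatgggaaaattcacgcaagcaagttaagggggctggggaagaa

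On the Vascepa arrays 20 of the 29 members above the filter had a lower mean than on the vehicle arrays and 9 a higher mean, a lower share of 69.0% against 60.1% of the 13493 genes tested. The median difference, Vascepa minus vehicle, was -0.07 over the 29 members and -0.06 over all genes tested. Brighter genes ran lower: of the 7211 genes kept by a stricter filter, at the 75th percentile of intensity, 73.3% were lower, with a median of -0.14. Single members ran from -0.71 for H2-Q1 to 0.36 for H2-K2. No member passed an adjusted p under 0.05 in limma's fit over all genes (0 of 29, adjusted p from 0.976 to 0.997), and none reached an unadjusted p under 0.05, against 0.0% and 2.68% of all genes tested (1.64% lower and 1.04% higher). In none of the 29 did the groups lie apart, against 8.24% of all genes (5.11% lower and 3.13% higher). The difference was smaller than the widest within-group range in 29 of 29 members. No share over all genes was worked out for this count, so it does not set the members apart. The spread was wider on the Vascepa arrays for 21 of the 29 members (72.4%), as it was for 71.4% of all genes.

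**Figure D1:**
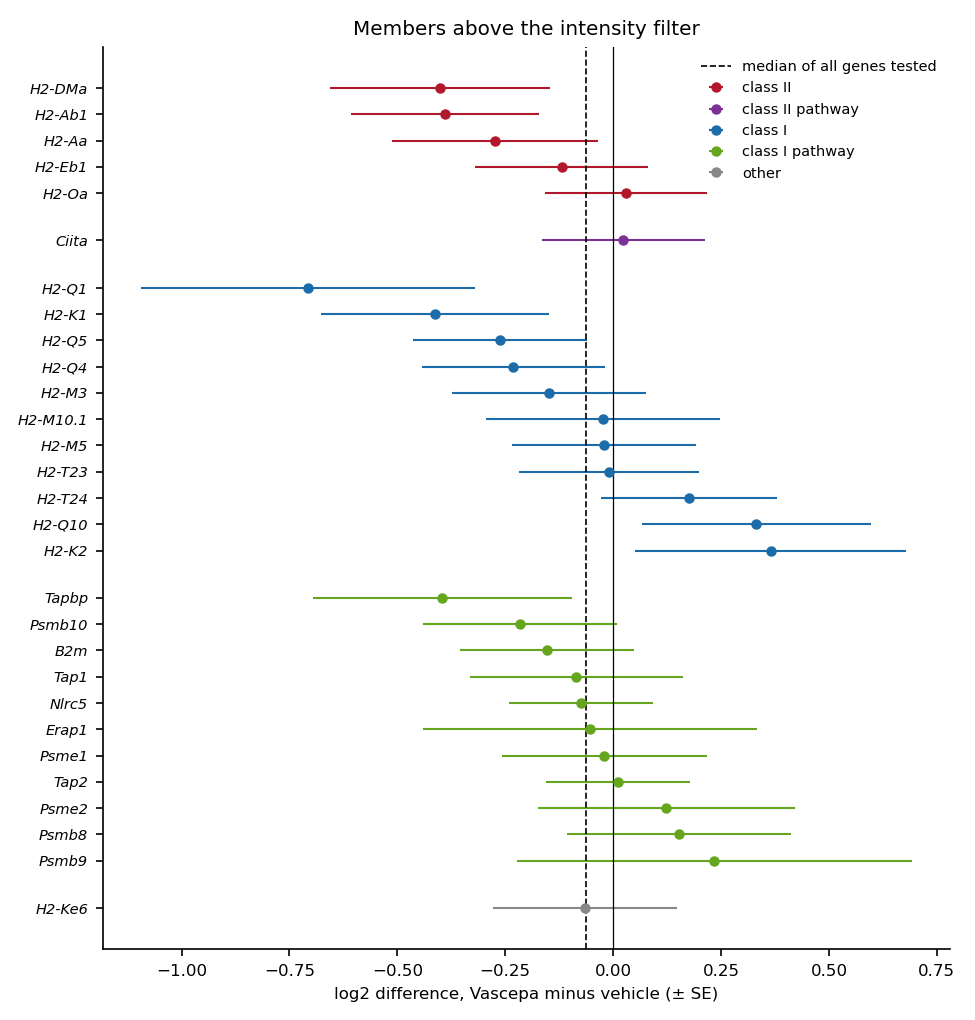
Difference in log2 level (horizontal axis, Vascepa minus vehicle, point ± SE from limma, 3 arrays against 3) for the 29 members above the intensity filter, coloured by class, with a dashed line at the median of all genes tested (-0.06). Of the 5 class II points 4 lie left of the dashed line, and the class I points spread to both sides, from -0.71 to 0.36. Of the members named by rule, H2-Eb1, Ciita, Tap1, Tap2, Erap1 and Psme1 change sign when arrays are rescaled. H2-Oa, not named by rule, also turns negative with each array centred.

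The arrays themselves differed within groups. Pairs of arrays correlated at between 0.906 and 0.986 across genes, and Vascepa replicate 3 had the lowest mean correlation with the others, 0.938. Small nucleolar RNAs averaged from 5.80 to 6.69 with vehicle and from 5.67 to 7.36 with Vascepa, with Vascepa replicate 3 highest and Vascepa replicate 1 lowest. All 8 hepatocyte markers were above the filter, 6 lower and 2 higher with Vascepa. Alb, the brightest of them, stayed between 13.2 and 13.3 on all 6 arrays. The list's medians from the vehicle mean were 0.02, -0.07 and 0.01 with vehicle and 0.00, -0.03 and -0.44 with Vascepa. Its summed linear signal ran from 39039 to 43304 with vehicle and from 32998 to 44306 with Vascepa. The part of these array differences in the results was not tested.

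The class II chains were lower on 2 of the 3 Vascepa arrays and not on the remaining one. H2-Aa, the alpha chain of the I-A molecule, read 5.42, 5.19 and 5.48 with vehicle and 4.84, 4.87 and 5.55 with Vascepa. H2-Ab1, its beta chain, read 6.88, 7.02 and 6.86 with vehicle and 6.36, 6.29 and 6.93 with Vascepa. In both genes Vascepa replicates 1 and 2 lay below every vehicle array and replicate 3 lay among or above them, so the groups overlapped. H2-Eb1, the beta chain of I-E, read 5.64, 5.70 and 5.49 with vehicle and 5.22, 5.48 and 5.77 with Vascepa, again with replicates 1 and 2 below all vehicle arrays and replicate 3 above them. The limma differences were -0.27 ± 0.24 (SE, n = 3 against 3, adjusted p = 0.976) for H2-Aa and -0.39 ± 0.22 (adjusted p = 0.976, vehicle over Vascepa 1.31-fold) for H2-Ab1. For H2-Eb1 the limma difference was -0.12 ± 0.20 (adjusted p = 0.976), and its sign turned to a difference of 0.0047 when the arrays were quantile-normalized again.

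Over the 3 class II chains above the filter, the median distance from the vehicle mean was 0.03, 0.09 and -0.06 with vehicle and -0.52, -0.49 and 0.16 with Vascepa. The same median over all genes was 0.02, -0.05 and -0.12 on the Vascepa arrays. The remaining chain genes H2-Ea, H2-Eb2 and H2-Pb were below the filter. H2-Ea is a gene whose promoter is deleted in C57BL/6 mice, and its probe averaged 1.79 over the 6 arrays.

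Peptide exchange genes of class II followed a different order of arrays. H2-DMa, the alpha chain of the DM exchange molecule, read 3.96, 3.53 and 3.78 with vehicle and 3.64, 3.57 and 2.86 with Vascepa, a limma difference of -0.40 ± 0.26 (adjusted p = 0.976). Here replicate 3 was the lowest array and the other Vascepa arrays lay within the vehicle range, which is the reverse of the class II chains. H2-DMb1, a beta chain of DM, was below the filter on average, at 1.92, 2.58 and 2.00 with vehicle and 1.45, 1.86 and 1.82 with Vascepa. Its groups did not overlap, but so dim a probe was not tested. H2-Oa, a chain of the DO molecule that restrains DM, differed by 0.03 ± 0.19. The median over the 5 class II genes above the filter was -0.27, with 4 lower and 1 higher, against -0.06 over all genes. With the 75th percentile filter the class II median was also -0.27, against 73.3% lower and -0.14 over all genes it kept. The class II median was -0.14 with a second quantile normalization, -0.15 without Vascepa replicate 1 and -0.17 without Vascepa replicate 2.

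Ciita, the master transactivator of class II, read 3.88, 4.21 and 4.30 with vehicle and 4.22, 4.03 and 4.21 with Vascepa. All 3 Vascepa arrays lay inside the vehicle range, and the limma difference was 0.02 ± 0.19 (adjusted p = 0.988), with the sign reversed to -0.05 when each array was centred.

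**Figure D2:**
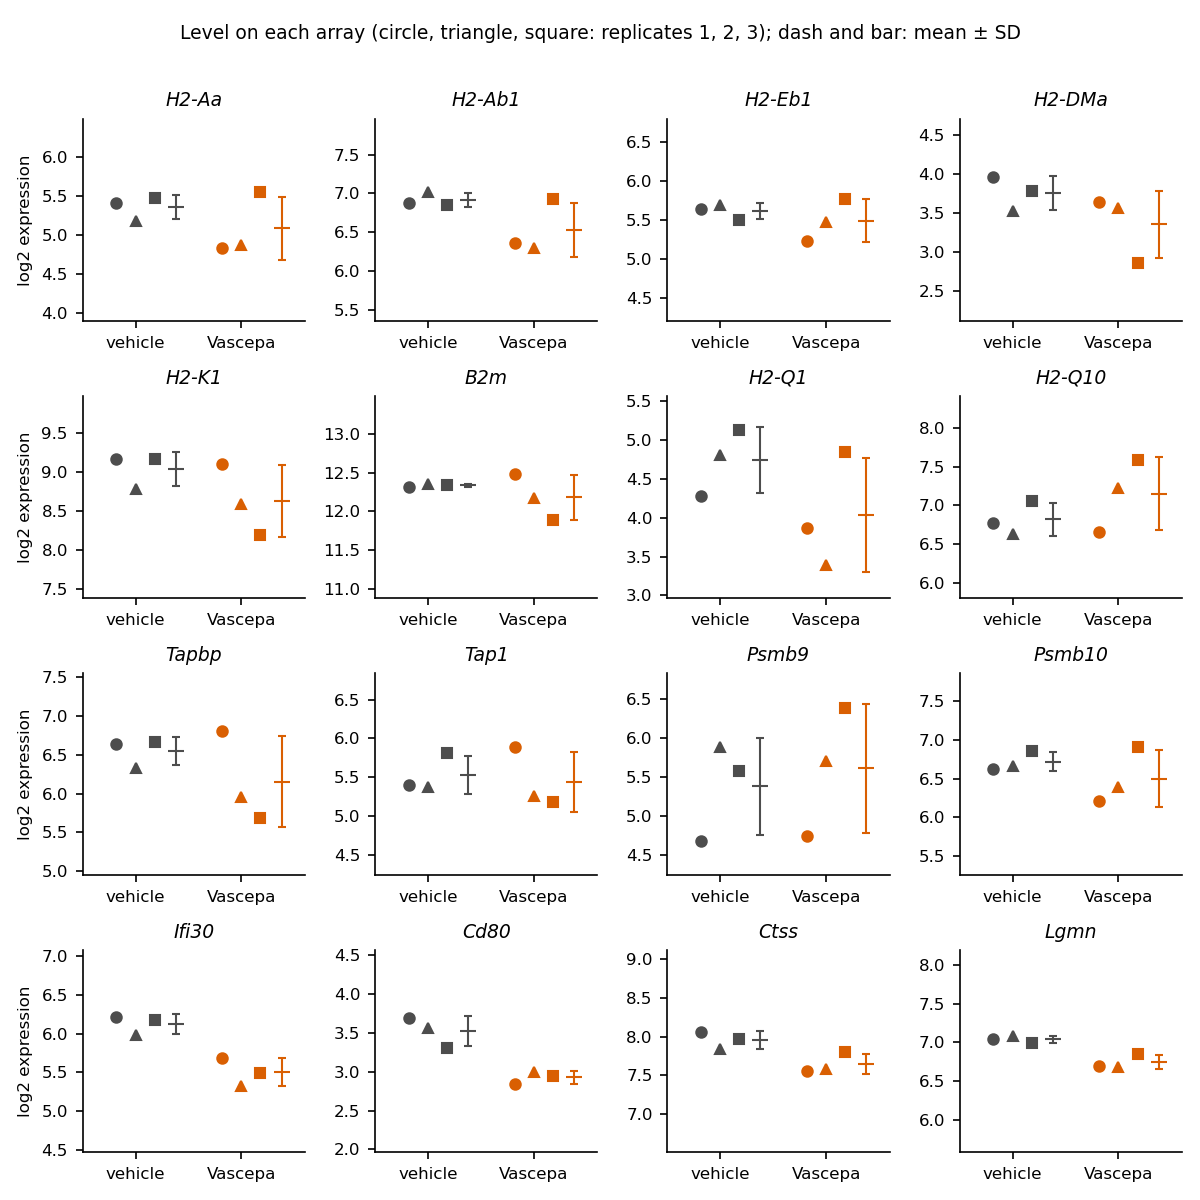
Deposited log2 level (vertical axis, a span of equal height in every panel) on each of the 3 vehicle (grey) and 3 Vascepa (orange) arrays, with the group mean ± SD. Panels show 12 members, then Ifi30, Ctss and Lgmn of class II processing and the costimulator Cd80. Cd80, Ctss and Lgmn were chosen after their values were seen. In H2-Aa and H2-Ab1 the Vascepa square (replicate 3, 5.55 and 6.93) sits apart from the circle and triangle, in H2-K1, B2m and Tapbp it is the lowest point, and in Ifi30, Cd80, Ctss and Lgmn the groups do not overlap.

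Class I heavy chains went both ways. H2-K1, the classical heavy chain with a probe of its own, read 9.17, 8.79 and 9.16 with vehicle and 9.11, 8.59 and 8.19 with Vascepa. Vascepa replicate 1 lay within the vehicle range and replicates 2 and 3 lay below it. The limma difference was -0.41 ± 0.26 (adjusted p = 0.976, vehicle over Vascepa 1.33-fold). H2-Q1, a non-classical heavy chain of the Qa region, had the largest difference of the members, from 4.29, 4.81 and 5.13 with vehicle to 3.87, 3.40 and 4.84 with Vascepa. Replicates 1 and 2 lay below all vehicle arrays, as in the class II chains, and replicate 3 lay within them. Its limma difference was -0.71 ± 0.39 (adjusted p = 0.976).

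The other Qa genes did not share one direction. H2-Q10, which encodes a class I molecule that the liver secretes, read 6.78, 6.63 and 7.05 with vehicle and 6.65, 7.22 and 7.58 with Vascepa, with replicates 2 and 3 above every vehicle array. The limma difference was 0.33 ± 0.27 (adjusted p = 0.976), while a dimmer second probe of H2-Q10 gave -0.05. H2-Q4 differed by -0.23 ± 0.21 and H2-Q5 by -0.26 ± 0.20, and their second probes gave -0.13 and -0.00. These heavy chain genes are near copies of each other, so a probe can read more than its named gene. A pair of probes that both carry the names H2-Q7, H2-Q8 and H2-Q9 showed how far such readings can part, with a difference of -0.40 on the brighter probe and 0.80 on the dimmer one.

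H2-K2, a further heavy chain name, read 4.19, 5.11 and 4.92 with vehicle and 4.91, 4.80 and 5.61 with Vascepa, a difference of 0.36 ± 0.31 with only replicate 3 above the vehicle range. H2-T24 differed by 0.18 ± 0.20. H2-T23, the gene of Qa-1, a ligand of natural killer cell receptors, differed by -0.01 ± 0.21, with 6.33, 6.68 and 6.73 with vehicle and 6.29, 6.67 and 6.75 with Vascepa. H2-M3, which presents formylated bacterial peptides, differed by -0.15 ± 0.22. Over the 11 heavy chains above the filter the median difference was -0.02, with 8 lower and 3 higher, and it was -0.17 without vehicle replicate 3. The class II median minus this one was -0.25, and without Vascepa replicate 1 both medians were -0.15. The other 11 heavy chains were dim, among them H2-M10.2 to H2-M10.6 of a family known from the vomeronasal organ, and H2-M1 was the one whose groups did not overlap, higher with Vascepa at a level too low to test.

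B2m, the light chain of every class I molecule, read 12.32, 12.35 and 12.33 with vehicle and 12.48, 12.17 and 11.89 with Vascepa. The vehicle arrays were nearly equal (SD 0.01) and the Vascepa arrays were spread to both sides of them (SD 0.29), with replicate 1 above and replicates 2 and 3 below all vehicle arrays. The limma difference was -0.15 ± 0.20 (adjusted p = 0.976).

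Peptide transport, trimming and loading genes spread among the Vascepa arrays in the same order. Tapbp, the gene of tapasin, which holds empty class I at the transporter, read 6.64, 6.34 and 6.67 with vehicle and 6.81, 5.96 and 5.69 with Vascepa. Erap1, which trims peptides in the endoplasmic reticulum, read 7.65, 7.09 and 7.59 with vehicle and 8.13, 7.49 and 6.54 with Vascepa. Tap1, a transporter subunit, read 5.41, 5.38 and 5.81 with vehicle and 5.89, 5.26 and 5.19 with Vascepa. In all 3 genes Vascepa replicate 1 lay above every vehicle array and replicate 3 below every vehicle array, so the Vascepa group enclosed the vehicle group. The limma differences were -0.40 ± 0.30 for Tapbp, -0.05 ± 0.39 for Erap1 and -0.09 ± 0.25 for Tap1 (adjusted p from 0.976 to 0.988), and those of Erap1 and Tap1 turned positive, at 0.03 and 0.04, with a second quantile normalization. A second, dimmer probe of Tapbp gave -0.04. Tap2, the partner of Tap1, stayed between 3.54 and 3.72 on all 6 arrays with a difference of 0.01 ± 0.17, which turned to -0.03 with a second quantile normalization and to -0.07 with each array centred.

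Nlrc5, the class I transactivator, read 2.99, 2.94 and 2.95 with vehicle and 2.95, 2.75 and 2.96 with Vascepa, close to the intensity filter, with a limma difference of -0.07 ± 0.17 (adjusted p = 0.976).

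Immunoproteasome genes, whose catalytic subunits replace those of the standard proteasome under interferon, spread in the opposite order of arrays. Psmb9 read 4.68, 5.88 and 5.57 with vehicle and 4.74, 5.71 and 6.39 with Vascepa. Psmb8 read 5.79, 6.20 and 6.31 with vehicle and 5.78, 6.41 and 6.56 with Vascepa. Psmb10, the remaining catalytic subunit, read 6.63, 6.66 and 6.86 with vehicle and 6.21, 6.39 and 6.91 with Vascepa. In all 3 genes replicate 1 was the lowest of the Vascepa arrays and replicate 3 the highest. The differences were 0.23 ± 0.46 for Psmb9, 0.15 ± 0.26 for Psmb8 and -0.22 ± 0.22 for Psmb10. Psme1 and Psme2, the subunits of the proteasome activator, differed by -0.02 ± 0.24 and 0.12 ± 0.30, and Psme1 turned to 0.02 with a second quantile normalization. Of the 5 genes 2 were lower and 3 higher, with a median of 0.12, and their limma adjusted p ran from 0.976 to 0.993. Psmb9 and Tap1, which share the stretch printed above, ran in opposite orders over the Vascepa arrays.

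Over the 11 class I pathway genes the median difference was -0.05, with 7 lower and 4 higher, and it was 0.02 with a second quantile normalization. H2-Ke6 differed by -0.07 ± 0.21.

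**Figure D3:**
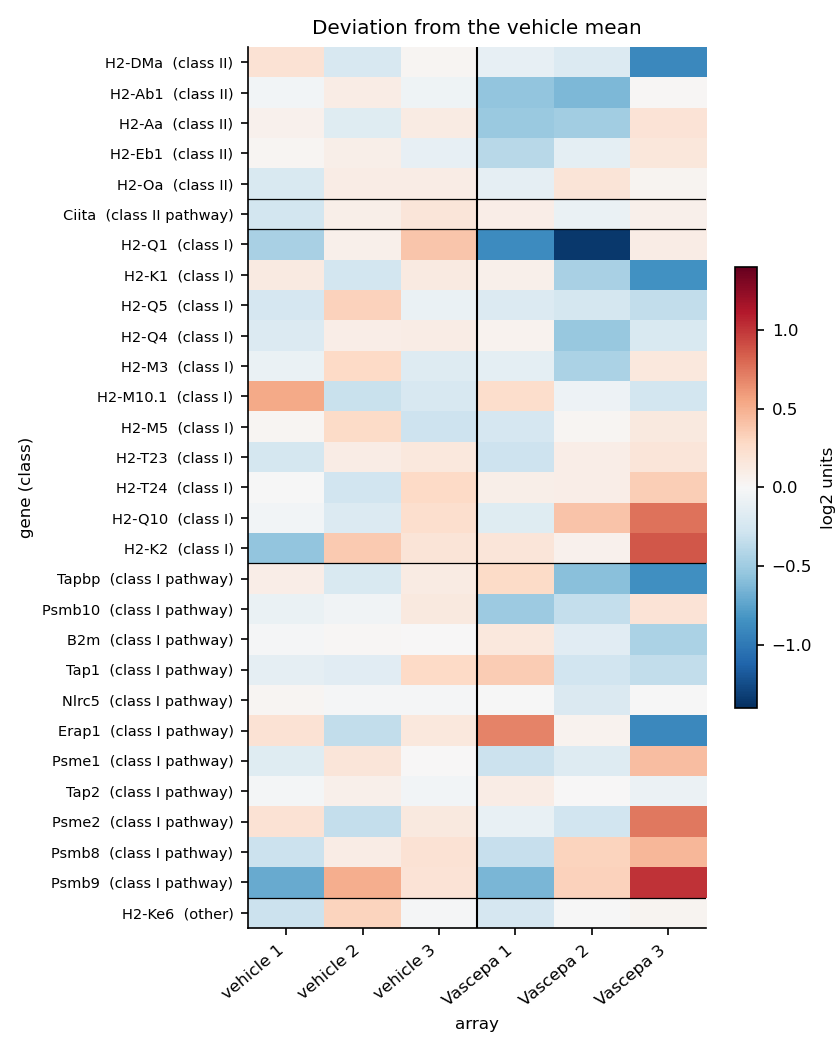
Each member above the filter (rows, with its class) on each array (columns) as the distance of its log2 level from its vehicle mean, red above and blue below. The lowest cells of H2-Ab1, H2-Aa and H2-Q1 lie in Vascepa replicates 1 and 2 and those of H2-K1, Tapbp, B2m and Tap1 in replicates 2 and 3. Psmb9, Psme2 and H2-K2 are highest in replicate 3. Cells of either colour also lie on vehicle arrays, some as dark as those on Vascepa arrays. Examples on vehicle replicate 1 are Psmb9 (4.68 against a vehicle mean of 5.38) and H2-Q1 (4.29 against a vehicle mean of 4.74).

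Which members separated depended on which Vascepa array was left out. Without replicate 3, 6 members lay wholly below the vehicle arrays (H2-Aa, H2-Ab1, H2-Eb1, H2-Q1, Psmb10 and Psme1), against 8.58% of all genes, and the class II chains H2-Aa and H2-Ab1 and H2-Q1 reached an unadjusted p under 0.05, against 2.6% of all genes. The limma differences were then -0.50 ± 0.19 for H2-Aa, -0.59 ± 0.18 for H2-Ab1 and -1.11 ± 0.29 for H2-Q1, each with an adjusted p of 1.00. Without replicate 1, none of these 6 separated. Instead 6 of the 29, B2m, H2-K1, H2-Q4, H2-Q5, Tap1 and Tapbp, lay wholly below the vehicle arrays, against 20.4% of all genes. H2-Q10 and Psmb8 lay above them, against 11.4%. An unadjusted p under 0.05 was reached by 3 of the 29, H2-K1, Tapbp and H2-Q10, against 15.0% of all genes. Each of these counts was close to or below the share over all genes, so they do not set the members apart. H2-K1 then differed by -0.65 ± 0.23, Tapbp by -0.72 ± 0.22 and H2-Q10 by 0.58 ± 0.23, with limma adjusted p from 0.306 to 0.312. These fits set 3 arrays against 2, and of the 6 ways of leaving out 1 array these were picked for description after their values were seen. Over all 6 ways of leaving out 1 array, 14 of the 29 members kept the sign of their difference.

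**Figure D4:**
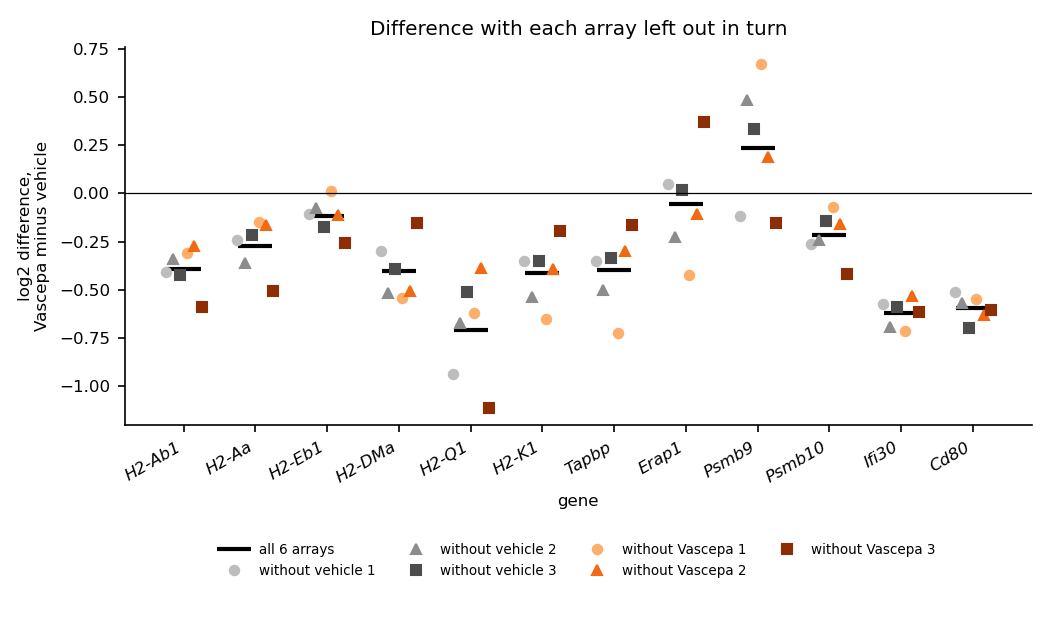
Log2 difference (vertical axis, Vascepa minus vehicle) of 10 members and of Ifi30 and Cd80 with all 6 arrays (bar) and with each array left out in turn (symbols). H2-Ab1, H2-Aa and H2-Q1 lie lowest without Vascepa replicate 3 (-0.59, -0.50 and -1.11), H2-K1 and Tapbp lowest without replicate 1 (-0.65 and -0.72), Erap1, Psmb9 and H2-Eb1 cross 0, and Ifi30 and Cd80 stay below -0.50 throughout.

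Genes that prepare antigen for class II in endosomes or accompany its display were next. Their list of 13 holds proteases and other processing genes, the ligases that turn class II over, and the surface costimulators Cd80, Cd86 and Cd40, which prepare no antigen. All 13 were above the filter, 11 were lower and 2 higher, and the median difference was -0.20. The 75th percentile filter kept 9 of them, all lower, with a median of -0.29, against 73.3% lower and -0.14 over all genes it kept. In limma 2 of the 13 had an unadjusted p under 0.05, against 2.68% of all genes, none passed after adjustment, and 5 of the 13 (Ifi30, Cd80, Ctss, Ctsd and Lgmn) lay wholly below the vehicle arrays, against 5.11% of all genes. Ifi30, the lysosomal thiol reductase that unfolds antigens, read 6.21, 5.97 and 6.18 with vehicle and 5.69, 5.33 and 5.49 with Vascepa, a limma difference of -0.62 ± 0.18 (adjusted p = 0.976). Cd80, a costimulatory ligand for T cells, read 3.69, 3.57 and 3.31 with vehicle and 2.84, 3.00 and 2.95 with Vascepa, a limma difference of -0.59 ± 0.18 (adjusted p = 0.976). In both genes each Vascepa array lay below each vehicle array, replicate 3 included. Cd86 differed by 0.04 ± 0.17 and Cd40 by -0.20 ± 0.26. Without vehicle replicate 1 the count at an unadjusted p under 0.05 was 1 of 13, against 198 of the 13493 genes tested. Without Vascepa replicate 1 it was 3 of 13, against 2018 of the 13493 genes (15.0%).

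Ctss, the cathepsin that cuts the invariant chain, read 8.06, 7.84 and 7.97 with vehicle and 7.56, 7.59 and 7.80 with Vascepa. Lgmn, an asparaginyl endopeptidase of lysosomes, read 7.05, 7.08 and 6.99 with vehicle and 6.70, 6.69 and 6.86 with Vascepa. The differences were -0.31 ± 0.18 for Ctss, -0.29 ± 0.17 for Lgmn and -0.39 ± 0.18 for Ctsd, a lysosomal aspartic protease. Marchf1, the ligase that removes class II from the cell surface, had the smallest p of the higher genes, at 0.25 ± 0.21. Cd80, Cd86, Cd40, Ctss, Ctsd and Lgmn were named after their values were seen.

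The class I partners outside the members showed no gene past the adjusted threshold in limma. Of 9 folding and loading partners of class I in the endoplasmic reticulum above the filter, 9 were lower, with a median of -0.26 and none at an unadjusted p under 0.05. Tapbpl, a tapasin relative that edits peptides, had the smallest p among them, at -0.36 ± 0.18, with 5.30, 5.22 and 5.24 with vehicle and 5.03, 4.70 and 4.95 with Vascepa, all below the vehicle arrays. The list varied widely within both groups, with medians of 0.49, -0.45 and -0.01 from the vehicle mean with vehicle and 0.47, -0.33 and -0.78 with Vascepa. Its count and median rested on single arrays, with 5 of 9 lower and a median of -0.02 without Vascepa replicate 3, 6 of 9 and -0.03 without vehicle replicate 1, and medians of -0.56 and -0.49 without Vascepa replicate 1 and vehicle replicate 2. All 9 partners also passed the 75th percentile filter, and of all genes it kept 73.3% were lower, with a median of -0.14. Of 10 standard proteasome counterparts 5 were lower and 5 higher, with a median of -0.00 that ran from -0.10 without Vascepa replicate 3 to 0.22 without Vascepa replicate 1. Psme3 differed by -0.37 ± 0.21 and Psmb3 by 0.22 ± 0.28. Of 6 class I-like genes outside the H2 names 5 were lower, with a median of -0.31, which was -0.17 without Vascepa replicate 1 and -0.19 without vehicle replicate 2. Among them were Mr1, which presents vitamin B metabolites, at -0.50 ± 0.22, and Procr at 0.18 ± 0.25.

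Genes of interferon signalling and genes induced by interferon were mixed. Of 19 genes of interferon signalling and MHC transcription factors above the filter, 13 were lower and 6 higher, with a median of -0.15 and none at an unadjusted p under 0.05 in limma. The median was 0.04 without Vascepa replicate 3 (8 lower) and 0.01 without vehicle replicate 1 (9 lower). It was -0.27 without Vascepa replicate 1, -0.32 without vehicle replicate 2 and -0.06 with a second quantile normalization. In the limma fit without Vascepa replicate 1, 3 of the 19 genes had an unadjusted p under 0.05, against 15.0% of all genes. That count does not set the list apart. Ifngr1, a chain of the interferon gamma receptor, differed by -0.30 ± 0.18 and Rfxap, a subunit of the factor that binds the X box, by 0.25 ± 0.17. Of 17 interferon-induced GTPases and sensors, 11 were lower and 6 higher, with a median of -0.02, which turned to 0.07 without vehicle replicate 3 (6 lower) and 0.01 without Vascepa replicate 1 (8 lower) and was -0.19 without Vascepa replicate 3. Gbp7 differed by -0.77 ± 0.35 and Ifit3 by 0.20 ± 0.27.

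Markers of the cells that carry class II differed in both directions. In bulk liver, fewer cells of a type and less RNA per cell cannot be told apart. Of 11 Kupffer cell markers, all above the filter, 10 were lower and 1 higher, with a median of -0.20. This median was -0.09 with a second quantile normalization, -0.04 without Vascepa replicate 1 and -0.45 without Vascepa replicate 3. The 75th percentile filter kept 10 of these markers, all lower, with a median of -0.21, against 73.3% lower and -0.14 over all genes it kept. The list's medians from the vehicle mean were -0.01, 0.05 and -0.07 with vehicle and -0.49, -0.29 and -0.07 with Vascepa, lowest on the arrays where the class II chains were lowest. Vsig4, Timd4 and Cd68 lay wholly below the vehicle arrays, 3 of 11 against 5.11% of all genes, and were named after their values were seen. Their limma differences were -0.53 ± 0.18, -0.54 ± 0.22 and -0.54 ± 0.20, each at an unadjusted p under 0.05 and an adjusted p of 0.976. Of all genes 2.68% reached that unadjusted p, 1.64% lower. The 3 Kupffer markers at that unadjusted p stood beside 362 of the 13493 genes tested. They became 0 with a second quantile normalization (298 of all genes) and without vehicle replicate 1 (198 of all genes). They became 1 without vehicle replicate 3 (141 of all genes), Vascepa replicate 1 (2018) or Vascepa replicate 2 (221). They became 5 without Vascepa replicate 3 (351 of all genes). The summed linear signal of the Kupffer list ran from 1056 to 1213 on the vehicle arrays and from 751 to 1188 on the Vascepa arrays.

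Of 8 dendritic cell markers 4 were above the filter and all 4 of these were higher, with a median of 0.36, and Flt3, Xcr1 and Itgax were dim. The median was 0.65 without Vascepa replicate 1, 0.23 without vehicle replicate 1, 0.14 without Vascepa replicate 3 (1 of 4 then lower) and 0.20 with the mean of each gene's probes. Ccr7, a homing receptor of migrating dendritic cells named after its value was seen, read 3.47, 3.73 and 3.46 with vehicle and 3.82, 4.52 and 4.32 with Vascepa. Its groups did not overlap, against 3.13% of all genes for higher ones, and the limma difference was 0.67 ± 0.23 (unadjusted p = 0.0189, adjusted p = 0.976). No dendritic marker had an unadjusted p under 0.05 without vehicle replicates 1 or 3 or Vascepa replicate 2. The summed signal of the dendritic list ran from 230 to 420 with vehicle and from 189 to 812 with Vascepa, most of it from Cd209a (0.44 ± 0.57, groups overlapping), and without Cd209a it ran from 45.3 to 48.2 and from 48.7 to 63.4. Of 8 markers of recruited monocytes and macrophages 4 were above the filter, 2 lower and 2 higher, with a median of -0.02, and Ccr2, Itgam, Gpnmb and Chil3 were dim. The medians of that list from the vehicle mean were 0.14, -0.12 and -0.07 with vehicle and -0.73, 0.12 and 0.26 with Vascepa, lowest on replicate 1. Its summed signal ran from 222 to 258 with vehicle and from 130 to 432 with Vascepa, most of it from Lyz2, and without Lyz2 from 57.5 to 70.7 and from 49.6 to 67.6. Of 9 B cell markers 5 were above the filter, with a median of -0.02 and a summed signal from 150 to 159 with vehicle and from 156 to 165 with Vascepa, and Ms4a1, Fcer2a and Cr2 were dim. The 8 sinusoidal endothelial markers had a median of -0.06, with summed signals from 901 to 981 with vehicle and from 857 to 966 with Vascepa. The part of these cell types in the class II levels was not tested.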

How the data were processed

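RNA from 6 liver samples, 3 per group, was hybridised to Affymetrix arrays. The authors deposited log2 expression values for 41345 probes, made with Affymetrix Expression Console and RMA per the submitters' processing notes, which name no versions. This method corrects background, quantile-normalizes arrays and compresses differences at the dim end. Batches were not tested, since neither slide nor scan time was known. The number of arrays limits the precision.

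Gene names came from the platform annotation. Of the probes, 23521 carried 1 symbol (23328 updated by gene ID through RefSeq's GRCm38.p6 table), 1814 several and 16010 none. Only single-symbol probes whose mean reached the all-probe median (2.65) were tested, using each gene's brightest probe, 13493 genes in all. Groups were compared with limma 3.58.1 in R 4.3.3 (lmFit, eBayes, no covariate) with Benjamini-Hochberg adjustment over all 13493 genes at 0.05, after a check on simulated data. Alternatives were other filters, scalings, priors, weights, probe rules, a replicate block and leaving out each array. Pathway and marker lists are described by counts and medians. Members and lists were chosen with earlier results of these data known.

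Named by rule were B2m, H2-K1, the class II chains, H2-DMa, H2-DMb1, Ciita, Nlrc5, the transport, loading and immunoproteasome genes, the 3 other members with the smallest p in each direction and, in each pathway list, the gene with the smallest p in each direction. H2-M1, H2-M3, H2-Oa, H2-T23, H2-Ea and H2-Ke6 were added after their values were seen. Promoter windows came from RefSeq's GRCm38.p6 sequences. 12 members had no entry and were not analysed there.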

Additional observations from a re-analysis of the deposited data

How the results depend on the processing

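No gene passed the adjusted threshold in limma under any alternative other than array quality weights. With them 4100 of the 13493 genes passed, and 5902 had an unadjusted p under 0.05. Of the 29 members 9 passed (H2-Aa, H2-Ab1, H2-K1, H2-M3, H2-Q1, H2-Q4, Psmb10, Tap1 and Tapbp) and 12 had that unadjusted p. Both counts lie near the shares over all genes, so they do not set the members apart. The class I pathway median was then -0.18. Those weights gave Vascepa replicate 2 a weight of 39.5 and no other array more than 2.33, and their estimation did not converge. Genes at an unadjusted p under 0.05 numbered 757 with no filter and 106 with a 75th percentile filter, against 362. With no filter 2 of 46 members lay apart, the class II median was -0.12 and class II minus class I -0.10 (main -0.25). That gap was -0.12 with the 75th percentile filter and -0.057 after a second quantile normalization. Of 29 members 1 lay apart with each array centred (H2-Ab1) and 1 with the mean of a gene's probes (H2-Q4). The shares of all genes lying apart were not worked out in these settings, so the counts do not set the members apart from other genes. Centring gave 319 lower and 65 higher genes at that p, against 221 and 141. The replicate numbers share only a number (same-number correlations 0.61, 0.11 and -0.13), and the replicate block gave 1 member at an unadjusted p under 0.05 (H2-Q1) and 438 genes.

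Leaving out each array gave 141 to 2018 genes and 0 to 3 members at an unadjusted p under 0.05, 0 to 8 members apart, and medians of -0.17 to -0.011 (class I), -0.11 to 0.01 (class I pathway), -0.34 to -0.15 (class II) and -0.33 to 0.0029 (class II minus class I). Shares of all genes lying apart are given above only for the fits without Vascepa replicates 1 and 3. Of the 29 members 15 changed sign, among them H2-T23 (-0.13 to 0.13), H2-M3 (-0.29 to 0.0012), H2-Oa (-0.076 to 0.11), H2-Ke6 (-0.21 to 0.092), H2-M5 (-0.17 to 0.11) and H2-M10.1 (-0.18 to 0.24). Signs also turned in Ciita (-0.10 to 0.11), Erap1 (-0.43 to 0.37), H2-Eb1 (-0.26 to 0.015), Procr (-0.016 to 0.37), Psmb3 (-0.033 to 0.47), Psmb8 (-0.0014 to 0.39), Psmb9 (-0.16 to 0.67), Psme1 (-0.24 to 0.12), Psme2 (-0.18 to 0.32), Tap1 (-0.31 to 0.054) and Tap2 (-0.037 to 0.058). Of the genes named by rule, a second quantile normalization turned H2-Eb1 (0.0047), Tap1 (0.037), Tap2 (-0.025), Erap1 (0.033) and Psme1 (0.024). Centring turned Ciita (-0.052) and Tap2 (-0.065). It moved every difference by -0.076, so H2-Oa, not named by rule and at 0.03 in the main fit, also turned negative. Weights turned Ciita (-0.18), Psme2 (-0.34), H2-K2 (-0.017) and H2-T24 (-0.054) of the genes named by rule. The cause of these changes was not tested. The dim members, 17 of 46, lie where RMA compresses differences.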
